A study of Homo sapiens with 2 samples.

Results

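The genes described are the 4 eIF2α kinase genes (EIF2AK1, EIF2AK2, EIF2AK3 and EIF2AK4), the GCN2 co-activator GCN1L1, the kinase substrate EIF2S1, and the phosphatase regulators PPP1R15A and PPP1R15B. They were chosen by symbol, not by level, and all 8 have a row in both expression tables, which list 25277 rows each. The cells were HEK293, a transformed line of human embryonic kidney, either wild type (WT) or knocked out for EIF2AK3, the gene of the ER-resident kinase PERK (PERK-KO). The PERK-KO line was made with CRISPR/Cas9, using one or the other of a pair of guides, from single seeded cells that were screened by immunoblot, so it stands for a clone and was not compared with other clones here. Both lines were kept for 12 h in glucose-free medium with 10 mM galactose and 1 mM pyruvate, in which cells depend on oxidative phosphorylation (OXPHOS medium). Polyadenylated RNA was then sequenced from 1 sample of each genotype, which addresses how transcript levels differ when PERK is missing.

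With 1 sample per genotype, no difference could be tested, and clone, culture and genotype cannot be told apart. Levels are given as FPKM, fragments per kilobase of exon normalised to the total mapped, each with the lower and upper confidence limits of the deposited tables. These limits cover the counting and assignment of fragments in 1 library and not the variation between cultures. A gene was counted as higher or lower when its FPKM differed by more than 1.5-fold, provided that either library reached an FPKM of 1 and neither was at 0, which held for 14439 genes. All 8 genes passed this filter. As a further count, genes were listed whose limits did not overlap between the samples.

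Translation initiation factor eIF2 carries the initiator tRNA to the ribosome. Each of the kinases phosphorylates its α subunit on the same serine, which blocks the exchange factor eIF2B, lowers general translation and lets the mRNA of the transcription factor ATF4 be translated. The kinases answer different stresses: HRI (EIF2AK1) responds to haem shortage and to signals from mitochondria, PKR (EIF2AK2) to double-stranded RNA, PERK (EIF2AK3) to unfolded protein in the ER, and GCN2 (EIF2AK4) to uncharged tRNA. Protein phosphatase 1 (PP1) removes the phosphate when it is bound by GADD34 (PPP1R15A), which is induced by stress, or by CReP (PPP1R15B), which is present without it.

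The part of EIF2AK3 that the guides address is shown first because it defines the PERK-KO line. Both guides matched the GRCh37 genome without a mismatch, each at 1 site followed by the NGG motif that Cas9 needs, on the minus strand of chromosome 2 inside coding exons of EIF2AK3. The first lies at chr2:88885449-88885469 in exon 9 and covers codons 514 to 520. The second lies at chr2:88879056-88879076 in exon 11 and covers codons 616 to 622. In the lines that follow, capitals mark the NGG motif beside each guide.
PERK guide 1: gatcctgttcttcttttacacTGG
PERK guide 2: gactgcaattatgctatcaagAGG
A cut 3 bases from the motif falls after codon 519 for the first guide and after codon 621 for the second, 46.5% and 55.6% of the way through the 1116 codons. The last codon covered by the second guide, codon 622, is that of the lysine in the ATP site of the kinase. Which guide gave the sequenced clone is not stated, and a level over the whole gene does not show the edited bases.

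The lysine codon of the ATP site lies in a corresponding stretch of each kinase gene, which is shown to place the guide among the other family members. The stretches are on the coding strand of GRCh37 with GENCODE 44 transcripts, at chr7:6085720-6085770 (minus strand, exon 6, codon 196) for EIF2AK1, chr2:37353432-37353478 (minus strand, exon 11, codon 296) for EIF2AK2, chr2:88879036-88879082 (minus strand, exon 11, codon 622) for EIF2AK3 and chr15:40268627-40268677 (plus strand, exon 12, codon 619) for EIF2AK4. Capitals mark the lysine codon.
EIF2AK1: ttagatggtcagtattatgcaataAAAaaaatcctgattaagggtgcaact
EIF2AK2: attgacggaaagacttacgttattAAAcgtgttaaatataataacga
EIF2AK3: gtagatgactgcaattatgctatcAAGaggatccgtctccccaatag
EIF2AK4: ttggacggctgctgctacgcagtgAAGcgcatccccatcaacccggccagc
Between pairs of the kinases, the translated coding sequences were 37.4% to 44.1% identical over local alignments of 273 to 426 residues, with the highest identity between EIF2AK2 and EIF2AK3. The coding regions have 630 codons in EIF2AK1, 551 in EIF2AK2, 1116 in EIF2AK3 and 1649 in EIF2AK4.

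**Figure D1:**
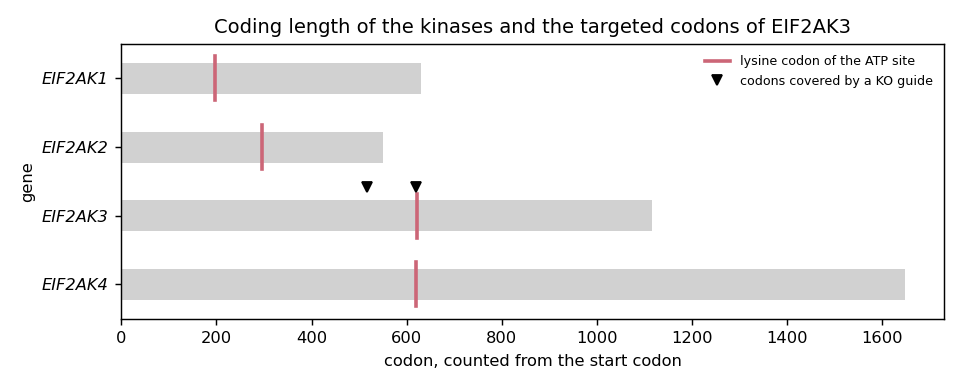
Grey bars show the coding length of each eIF2α kinase gene in codons counted from the start codon, red lines the lysine codon of the ATP site, and black triangles the codons covered by the guides used to make PERK-KO cells. The second guide of EIF2AK3 ends on the lysine codon 622, and the first lies upstream of it.

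EIF2AK3 itself, the targeted gene, was still represented in the PERK-KO library. It had an FPKM of 5.61 (limits 5.11 to 6.12) in WT and 3.89 (limits 3.44 to 4.34) in PERK-KO cells. The limits did not overlap, and the level was 1.44-fold lower in PERK-KO cells, a log2 ratio of -0.53. By the limits the PERK-KO over WT ratio could lie between 0.563 and 0.849. It was the lowest ratio of the 8 genes, and 8.77% of all genes tested had a lower one, but it was not past 1.5-fold. EIF2AK3 was also the least abundant of the 8 in both samples and had the widest limits, at 8.97% of its value on each side in WT and 11.5% in PERK-KO cells. Relative to the median of genes of like transcript length, its log2 ratio was -0.67, which is past 1.5-fold.

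By FPKM, the other kinases were not lower in this way. EIF2AK1, which encodes the haem-regulated kinase HRI, had an FPKM of 49.4 (limits 46.9 to 52.0) in WT and 48.6 (limits 46.3 to 50.9) in PERK-KO cells. Its limits overlapped, with a ratio between 0.890 and 1.09. Relative to genes of like transcript length, its log2 ratio was -0.17. With lengths inside the listed locus it was -0.21, below the range that the limits allow. The 3′ end of its listed locus shares 1588 bases with AIMP2, at 41.1 FPKM in WT and 34.2 in PERK-KO cells, and since the library preparation is not described as keeping the strand, fragments from shared bases may have been assigned to either gene.

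EIF2AK2 encodes PKR, the kinase that binds double-stranded RNA. Its FPKM was 10.8 (limits 9.98 to 11.6) in WT and 13.2 (limits 12.2 to 14.2) in PERK-KO cells, a log2 ratio of 0.29 with a PERK-KO over WT ratio between 1.05 and 1.42. EIF2AK4, which encodes the amino acid sensor GCN2, had an FPKM of 14.8 (limits 14.1 to 15.6) in WT and 18.0 (limits 17.1 to 18.8) in PERK-KO cells. Its log2 ratio was 0.28, with a PERK-KO over WT ratio between 1.10 and 1.34. For both genes the limits were apart, with the PERK-KO sample the higher one, and both ratios were under 1.5-fold. The direction of EIF2AK2 turned in 1 alternative, in which its log2 ratio was -0.049 relative to genes of like transcript length when the annotated transcript of 9975 bases was used. With the 4044 bases of that transcript that lie inside the listed locus it was 0.17. EIF2AK4 kept its direction but came to 0.10 relative to genes of like transcript length, and to 0.052 with lengths inside the listed locus. Both values lie under the lowest log2 ratio that its limits allow, 0.13.

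GCN1L1, now named GCN1, is the ribosome-associated protein through which GCN2 is activated. It had an FPKM of 17.7 (limits 17.0 to 18.3) in WT and 26.3 (limits 25.4 to 27.1) in PERK-KO cells. The limits were apart, and the ratio of 1.49, between 1.39 and 1.59 by the limits, fell just under 1.5-fold. GCN1L1 stood above EIF2AK4 in both samples, at 1.19 times its FPKM in WT and 1.46 times in PERK-KO cells. The ranges that the limits allow for these values did not overlap, so by FPKM the co-activator differed more between the samples than its kinase did. Relative to genes of like transcript length, the log2 ratios were 0.23 for GCN1L1 and 0.10 for EIF2AK4. With lengths inside the listed locus they were 0.24 and 0.052. Whether the ranges stay apart on that scale was not tested.

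**Figure D2:**
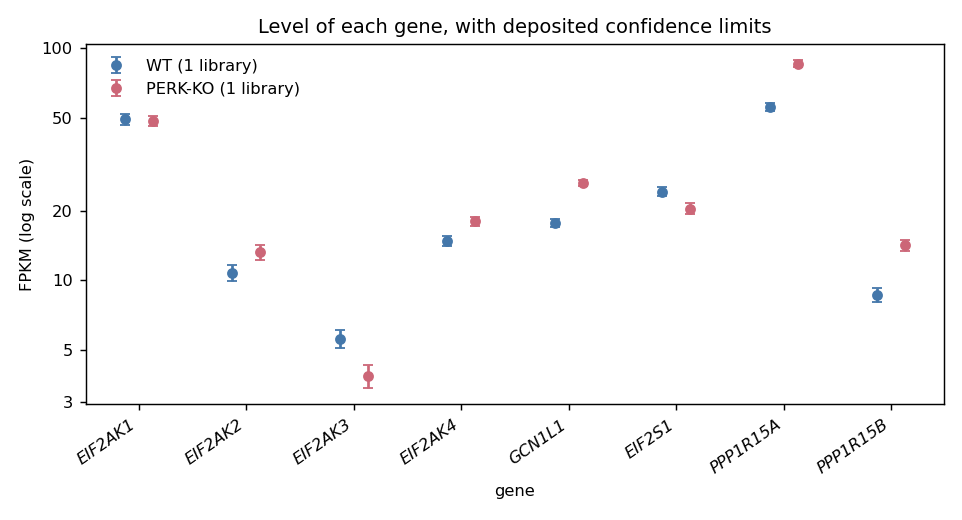
Points show the FPKM (log scale) of the 8 genes in the WT library (blue) and the PERK-KO library (red), and bars the deposited confidence limits of each library, with 1 library per genotype. EIF2AK3 is the lowest in both, PPP1R15A the highest, and only the bars of EIF2AK1 overlap between the libraries.

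Since FPKM is scaled by length, the kinases can be set side by side within a sample. Their FPKM summed to 80.7 in WT and 83.7 in PERK-KO cells. EIF2AK1 made up most of it in both samples, with 61.3% in WT (58.5% to 64.0% by the limits) and 58.1% in PERK-KO cells (55.3% to 60.8%). EIF2AK4 followed with 18.4% and 21.5%, and EIF2AK2 with 13.4% and 15.8%. EIF2AK3 came last, at 6.96% in WT (6.06% to 7.94%) and 4.65% in PERK-KO cells (3.94% to 5.43%), and its ranges in the samples did not overlap. The order of the kinases was the same in both samples. With FPKM multiplied by the length of the annotated transcript, EIF2AK2 held 24.9% and 28.4% and stood above EIF2AK4 with 19.0% and 21.5%. That transcript has 9975 bases for EIF2AK2, of which 4044 lie inside the listed locus. Inside its own locus EIF2AK4 has 5507 bases and also the higher FPKM, so by those lengths it stays above EIF2AK2. Per EIF2AK3 transcript, the FPKM of EIF2AK1 was 8.80 in WT and 12.5 in PERK-KO cells, that of EIF2AK4 2.64 and 4.62, and that of EIF2AK2 1.92 and 3.39. For each of these ratios the range that the limits allow was apart between the samples. The ratios share EIF2AK3 as the denominator, so all of them carry its lower level in PERK-KO cells and are not separate differences. The limits of EIF2AK1 itself overlapped.

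**Figure D3:**
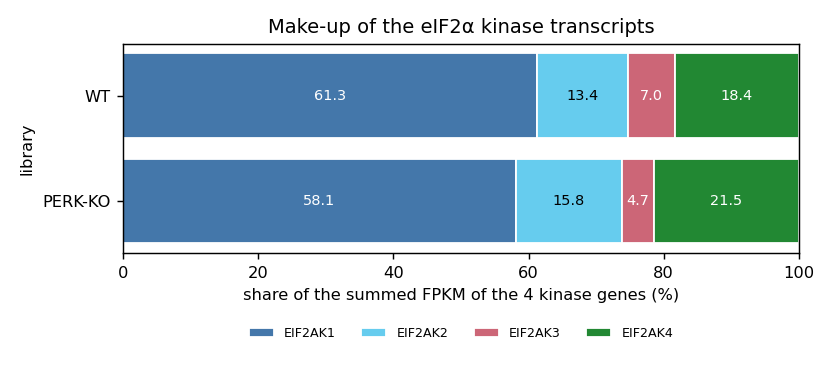
Stacked bars show the share of each eIF2α kinase gene in the summed FPKM of the 4 genes, in percent, for the WT and the PERK-KO library. EIF2AK1 holds 61.3% and 58.1%, and EIF2AK3 goes from 6.96% to 4.65%.

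EIF2S1 encodes eIF2α, the substrate of all these kinases. The codon of the serine they phosphorylate is number 52 counted from the start codon and lies in exon 2 at chr14:67831614-67831664 of GRCh37 on the plus strand. It is shown, in capitals, as the site on which the kinases and the phosphatases meet.
EIF2S1: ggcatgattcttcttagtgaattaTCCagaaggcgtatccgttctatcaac
The FPKM of EIF2S1 was 24.1 (limits 23.0 to 25.2) in WT and 20.4 (limits 19.3 to 21.5) in PERK-KO cells. It was lower in PERK-KO cells with the limits apart, at a log2 ratio of -0.24 and a PERK-KO over WT ratio between 0.764 and 0.931. With EIF2AK3 it was the other gene of the 8 that was lower in this sense.

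The other subunits of eIF2 had the same direction. EIF2S3, the γ subunit, had an FPKM of 434 in WT and 352 in PERK-KO cells, and EIF2S2, the β subunit, 153 and 111, with the limits apart for both. The FPKM of EIF2S3 was 18.0 times that of EIF2S1 in WT and 17.3 times in PERK-KO cells, with overlapping ranges. That of EIF2S2 was 6.33 times in WT (5.91 to 6.79 by the limits) and 5.43 times in PERK-KO cells (5.01 to 5.91), ranges that met at their ends without overlapping.

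The phosphatase regulators were the genes of the 8 with the highest ratios. PPP1R15A (GADD34) and PPP1R15B (CReP) bind PP1 through a short motif of the form KVxF. The spliced stretch around the motif of PPP1R15A is shown because it is the part through which the regulator takes hold of PP1. It joins exons 2 and 3 (plus strand, within chr19:49378132-49378900 of GRCh37), with the motif codons 555 to 558 in capitals.
PPP1R15A: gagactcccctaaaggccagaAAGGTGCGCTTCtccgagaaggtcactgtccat
PPP1R15A, the stress-induced regulator, had an FPKM of 55.8 (limits 53.5 to 58.0) in WT and 85.7 (limits 82.7 to 88.7) in PERK-KO cells. This is 1.54-fold higher in PERK-KO cells, a log2 ratio of 0.62, with 1.43 to 1.66 allowed by the limits. PPP1R15B, the constitutive regulator, had an FPKM of 8.68 (limits 8.09 to 9.27) in WT and 14.2 (limits 13.4 to 14.9) in PERK-KO cells. This is 1.63-fold higher, a log2 ratio of 0.70, with 1.44 to 1.85 allowed by the limits. The limits were apart for both genes and both ratios were past 1.5-fold, although the lowest ratio that the limits allow was under it in each.

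Both regulators differed by a like factor. PPP1R15A had 6.42 times the FPKM of PPP1R15B in WT (5.77 to 7.17 by the limits) and 6.05 times in PERK-KO cells (5.53 to 6.64), and these ranges overlapped. The call on each depended on scaling. With the median log2 ratio of all genes tested set to 0, PPP1R15A came to 0.58, just under 1.5-fold, while PPP1R15B came to 0.67. Relative to genes of like transcript length PPP1R15A came to 0.65 and PPP1R15B to 0.52, so that the call on PPP1R15B ended.

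Across the 8 genes, 2 (PPP1R15A and PPP1R15B) were higher past 1.5-fold in PERK-KO cells, where 9.65% of all genes tested were, and 0 were lower past 1.5-fold, where 7.15% were. By the limits, 5 were higher (EIF2AK2, EIF2AK4, GCN1L1, PPP1R15A and PPP1R15B), against 26.3% of all genes tested, and 2 were lower (EIF2AK3 and EIF2S1), against 18.8%. EIF2AK1 was the 1 gene whose limits overlapped. The median log2 ratio of the 8 genes was 0.28, beside 0.04 over all genes tested with quartiles of -0.23 and 0.31. Genes of like transcript length had medians from -0.03 for PPP1R15A to 0.34 for GCN1L1, so 0.04 is not a like background for these 8 genes. Relative to such genes, log2 ratios ran from -0.67 for EIF2AK3 to 0.65 for PPP1R15A, on both sides of 0. Neither of the counts was tested against chance, and 8 related genes chosen for their function do not represent a sample of genes.

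The order of the levels was nearly the same in both samples. In WT cells it ran from PPP1R15A over EIF2AK1, EIF2S1, GCN1L1, EIF2AK4, EIF2AK2 and PPP1R15B to EIF2AK3, with the limits of each neighbouring pair apart. In PERK-KO cells GCN1L1 stood above EIF2S1 with the limits apart. PPP1R15B also stood above EIF2AK2 there, with overlapping limits.

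**Figure D4:**
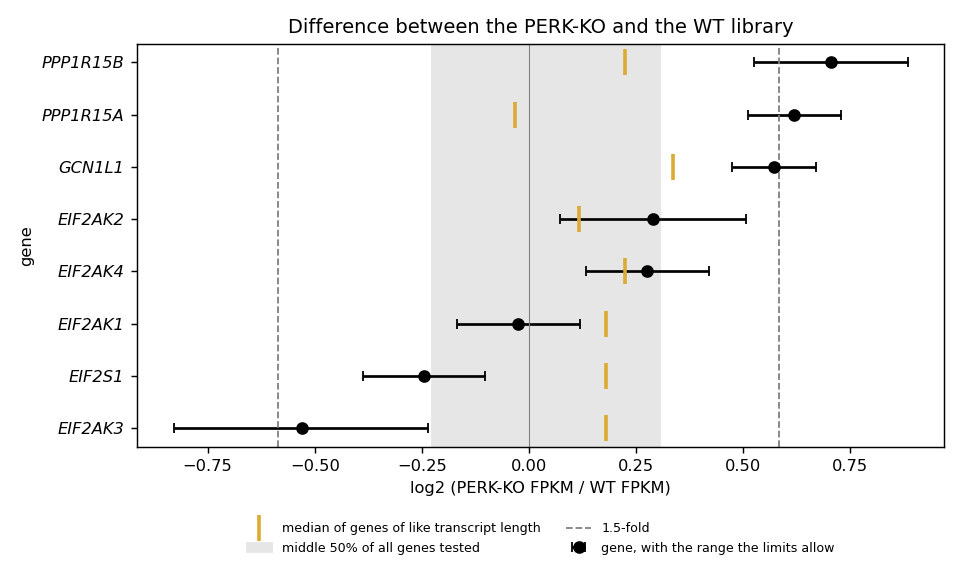
Points show the log2 ratio of PERK-KO over WT FPKM for the 8 genes and bars the range that the confidence limits allow. The grey band holds the genes tested between the lower and the upper quartile (-0.23 to 0.31), dashed lines mark 1.5-fold, and yellow marks give the median of genes with like transcript length, from -0.03 for PPP1R15A to 0.34 for GCN1L1.

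Ratios also differed with transcript length over all genes. The genes were divided by the transcript length inside their listed locus into 10 classes of like size, and the median log2 ratio went from -0.36 in the class of the shortest transcripts to 0.34 in that of the longest. EIF2AK1, EIF2AK3 and EIF2S1 lie in a class with a median of 0.18, EIF2AK2 in one with 0.12, EIF2AK4 and PPP1R15B in one with 0.23, GCN1L1 in one with 0.34 and PPP1R15A in one with -0.03. So all but PPP1R15A have transcripts in the longer range, where ratios were above 0 at the median. The part of this trend in the difference of any single gene was not tested.

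The identity of the cells was checked on the same tables. Of 7 genes listed for HEK293 cells, 3 reached an FPKM of 1 in WT and 6 in PERK-KO cells, and their summed FPKM was 470 in WT and 452 in PERK-KO cells, most of it VIM. The neurofilament gene NEFL was at 44.9 in WT and 33.4 in PERK-KO cells, LHX1 at 4.65 and 2.88 with the limits apart, and PAX2 at 0.981 and 0.748. IRS4, an insulin receptor substrate known to be abundant in HEK293 cells, was at 0.121 in WT and 27.1 in PERK-KO cells, NEFM at 0.662 and 5.21, and INA at 0.458 and 4.13. The libraries thus differed in genes listed for the line, and the part of this difference in the other results was not tested. Of 6 markers of blood, liver, endothelium, adipocytes and muscle, 2 reached an FPKM of 1 in each sample. These were ADIPOQ, at 1.68 in WT and 1.42 in PERK-KO cells, and PECAM1, at 1.35 and 1.36. ALB and UCP1 were at 0 in both samples, and the sum of the list was 3.53 FPKM in WT and 3.23 in PERK-KO cells. In bulk RNA, fewer cells with a transcript and less of it per cell cannot be told apart.

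Genes around the kinases were described by lists, whose ratios were not set against genes of like transcript length. Of 11 known partners of the kinases, 4 were higher past 1.5-fold and 0 lower, and by the limits 7 were higher and 0 lower, with a median log2 ratio of 0.41. Of all genes tested, 9.65% were higher and 7.15% lower past 1.5-fold, and 26.3% were higher and 18.8% lower by the limits. HSPA5 (BiP), the ER chaperone that holds PERK inactive, had an FPKM of 161 (limits 158 to 164) in WT and 679 (limits 672 to 685) in PERK-KO cells, 4.21-fold higher. DNAJC3 (p58IPK), a co-chaperone known as an inhibitor of PKR and PERK, was at 7.01 (limits 6.50 to 7.53) and 19.0 (limits 18.1 to 19.9), and the ER chaperone HSP90B1 at 401 and 848. IMPACT, which competes with GCN2 for GCN1, was at 5.65 in WT and 9.80 in PERK-KO cells, with the limits apart. The ER chaperones of the list and the inhibitors DNAJC3 and IMPACT were higher in PERK-KO cells. TARBP2, another inhibitor of PKR, was at 45.9 and 40.7 with overlapping limits. The other genes higher by the limits were PRKRA at 20.5 in WT and 27.3 in PERK-KO cells, ADAR at 35.1 and 52.4, and OMA1 at 7.51 and 9.81. The higher genes were thus not confined to HSPA5, HSP90B1, DNAJC3 and IMPACT.

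Both other sensors of unfolded protein in the ER were higher by the limits, where 26.3% of all genes tested were. ERN1 (IRE1α) had an FPKM of 0.951 (limits 0.726 to 1.18) in WT and 2.07 (limits 1.72 to 2.42) in PERK-KO cells. It was higher past 1.5-fold, where 9.65% of all genes tested were, but its WT level lay under the FPKM of 1 of the filter. ATF6 had 7.92 (limits 7.45 to 8.38) and 11.1 (limits 10.5 to 11.7), a ratio of 1.40. In the PERK-KO library EIF2AK3 was thus lower, and the sensors of the other branches of the unfolded protein response were higher. The ratios of ERN1 and ATF6 were not set against genes of like transcript length, and a link between these differences was not tested.

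ATF4 and 11 of its classical targets were described as a readout downstream of eIF2α phosphorylation. All 12 had a log2 ratio above 0, 6 were higher past 1.5-fold and 8 by the limits, 0 were lower in either sense, and the median log2 ratio was 0.60. Over all genes tested 9.65% were higher past 1.5-fold and 26.3% by the limits, and 7.15% and 18.8% were lower. With 7.15% lower past 1.5-fold, a count of 0 lower in 12 genes does not set this list apart. The median log2 ratio over all genes tested was 0.04, itself above 0. ATF4, which is regulated by translation as well as by transcription, had an FPKM of 342 (limits 326 to 358) in WT and 506 (limits 483 to 528) in PERK-KO cells, a log2 ratio of 0.56. The genes past 1.5-fold included ASNS, which makes asparagine, at 32.5 in WT and 78.7 in PERK-KO cells, and PSAT1, an enzyme of serine synthesis, at 40.4 and 82.7. SLC7A11, the cystine transporter, was at 2.35 and 7.86, CHAC1, which degrades glutathione, at 3.44 and 7.26, SESN2, a regulator of mTORC1, at 18.2 and 30.5, and the transcription factor ATF3 at 37.2 and 57.7. DDIT3 (CHOP) was at 58.2 (limits 53.7 to 62.8) in WT and 66.2 (limits 61.1 to 71.4) in PERK-KO cells, with overlapping limits. PPP1R15A, itself a gene downstream of ATF4 and CHOP, with its log2 ratio of 0.62 was near the median of this list.

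**Figure D5:**
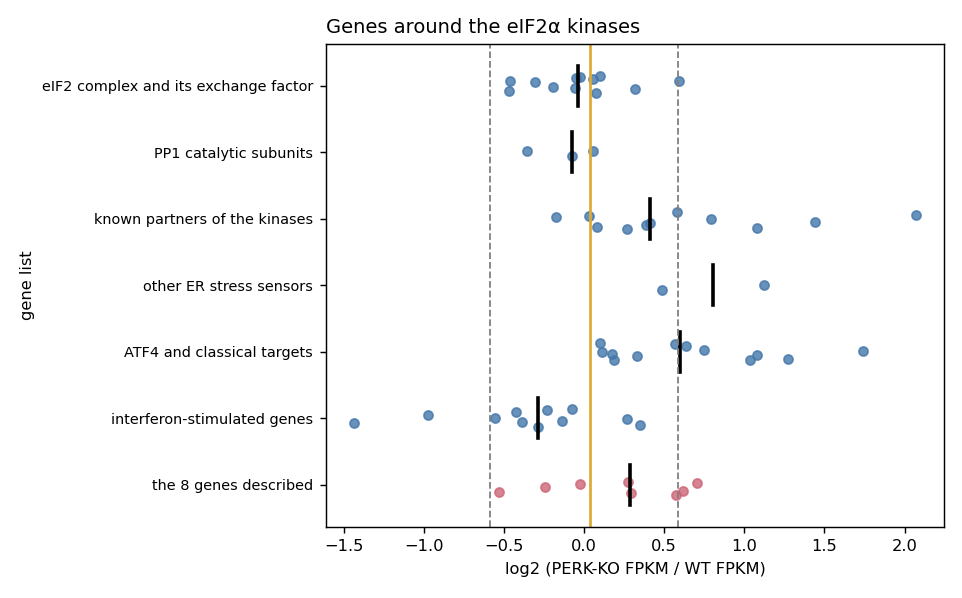
Each point is a gene that reached an FPKM of 1 in either library, placed by its log2 ratio of PERK-KO over WT FPKM and grouped by list. Black lines mark the median of each list, the yellow line the median of all genes tested (0.04) and dashed lines 1.5-fold, and the 12 genes of the ATF4 list all lie above 0.

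The lists nearest to the substrate and the phosphatase differed less. Of 12 genes of the eIF2 complex, its exchange factor and other initiator tRNA factors, 1 was higher past 1.5-fold and 0 lower. By the limits 4 were lower and 2 higher, and the median log2 ratio was -0.04. The shares of all genes tested were 9.65% higher past 1.5-fold, 18.8% lower by the limits and 26.3% higher by the limits, so the counts of higher genes in this list were near or under those of all genes. The gene past the threshold was EIF2A, which despite its symbol is not the α subunit of eIF2 but another initiator tRNA-binding protein, at 22.6 (limits 21.5 to 23.7) in WT and 34.0 (limits 32.5 to 35.4) in PERK-KO cells. Of the exchange factor eIF2B, the subunit gene EIF2B4 was lower by the limits, at 32.1 in WT and 23.2 in PERK-KO cells, while the other subunit genes of the list had overlapping limits. Of the 3 catalytic subunits of PP1, 0 were past 1.5-fold. PPP1CA was lower by the limits, at 275 (limits 264 to 287) in WT and 215 (limits 205 to 225) in PERK-KO cells, and PPP1CC had the highest ratio of the list, at 120 and 124 with overlapping limits. PPP1R15A and PPP1R15B, which direct PP1 to eIF2α, were higher by the limits, while their calls past 1.5-fold depended on the scaling. None of the 3 catalytic subunit genes was higher by either count. With 9.65% and 26.3% of all genes tested higher, a count of 0 in 3 genes does not set these subunits apart from other genes.

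EIF2AK2 is also an interferon-stimulated gene. Of 16 other such genes, 11 reached an FPKM of 1 in a sample, of which 2 were lower past 1.5-fold and 0 higher, 4 were lower and 1 higher by the limits, and the median log2 ratio was -0.29. Among all genes tested 7.15% were lower past 1.5-fold and 18.8% by the limits, and 9.65% were higher past 1.5-fold and 26.3% by the limits. ISG15, a ubiquitin-like modifier, was at 8.86 (limits 6.91 to 10.8) in WT and 4.51 (limits 3.01 to 6.01) in PERK-KO cells, and BST2, which tethers budding virus, at 25.5 (limits 22.9 to 28.2) and 9.44 (limits 7.73 to 11.1). EIF2AK2, with its log2 ratio of 0.29, lay on the other side of 0 from the median of this list. Relative to genes of like length, EIF2AK2 was at -0.049 by the annotated transcript and at 0.17 by the bases inside the listed locus. The ratios of the listed genes were not set against genes of like length, so these values cannot be compared with the list median.

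Promoters were searched for an element bound by C/EBP-ATF pairs such as those with ATF4 (TGATGNAA) and for the core of the interferon-stimulated response element (GAAANNGAA), on both strands of 300 bases around the listed start of each gene in RefSeq on GRCh38.p14. For 7 of the 8 genes a promoter was listed, EIF2AK1 being the other. The first element was in that of PPP1R15B, at bases -227 to -220 relative to the start, and in 3.62% of all 35116 promoters. The second was in that of EIF2AK2, at bases -6 to 2, and in 8.11% of all promoters. The promoter stretches with a match, at chr1:204412017-204412064 for PPP1R15B and chr2:37156958-37157006 for EIF2AK2, both on the minus strand, are shown with the element in capitals because they hold the matches found.
PPP1R15B promoter: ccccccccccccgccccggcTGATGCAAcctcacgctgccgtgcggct
EIF2AK2 promoter: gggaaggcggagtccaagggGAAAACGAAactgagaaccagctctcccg
A match of letters is a description and shows neither binding nor use, and PPP1R15A and the other listed genes had no match in this window.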

How the data were processed

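The authors mapped the reads to hg19 with TopHat2 2.0.13 and deposited, per sample, the FPKM of every gene and its confidence limits, made with Cufflinks 2.2.1 and Cuffdiff. The tables are named for RPKM, but the column holds FPKM. Read counts and depth are not in these tables. From genes with whole fragment numbers (412 genes, tolerance 0.01 fragments), a single fragment weighed 1.14 times as much in the PERK-KO as in the WT sample. In WT 14151 genes had an FPKM of 1 or more, and in PERK-KO cells 14235 had.

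Ratios were PERK-KO over WT FPKM without a pseudocount. The lowest ratio that the limits allow is the lower PERK-KO limit over the upper WT limit, and the highest is the reverse. With 1 sample per genotype no test was made. The genes and lists were chosen with earlier results of these data known. All 8 genes were named, and from each list the genes past 1.5-fold or, where there were none, those with the highest and lowest ratio, with ATF4, DDIT3, HSPA5 and DNAJC3 in any case. EIF2S2, EIF2S3, EIF2B4, TARBP2, PRKRA, ADAR, OMA1, ATF6, AIMP2 and the marker genes are named outside that rule, after their values were seen. Of the partner list, THAP12, DELE1 and GCN1 are newer names of PRKRIR, KIAA0141 and GCN1L1. Exons, codons and transcript lengths are those of GENCODE 44 on GRCh37, promoters those of RefSeq, and guide sequences those of the study's list of oligonucleotides. The calculations were tested on simulated data. Python 3.11.15, numpy 2.4.6, pandas 2.3.3, matplotlib 3.10.9 and Biopython 1.88 were used.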

Additional observations from a re-analysis of the deposited data

How the results depend on the processing

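With 1 sample per genotype, leaving out a replicate was not possible, and levels cannot be placed against the variation between cultures. No paired analysis was possible because each genotype has a single sample. Of 56 alternatives of the log2 ratios of the 8 genes, 47 stayed within the range that the confidence limits allow, 8 lay outside it and 1 turned in sign. The 47 include sums of rows with the same symbol, which could not differ because each of the 8 genes has 1 row. All values that lay outside or turned were those relative to genes of like transcript length. The causes of these shifts were not tested. Relative to genes in the same class of transcript length (10 classes), EIF2AK2 reversed to -0.049, and EIF2AK4 came to 0.10, GCN1L1 to 0.23 and PPP1R15B to 0.52. With lengths counted inside the listed locus, an alternative chosen after seeing the data, EIF2AK1 came to -0.21, EIF2AK4 to 0.052, GCN1L1 to 0.24, EIF2S1 to -0.43 and PPP1R15B to 0.48. Under the same alternatives EIF2AK3 passed 1.5-fold, at -0.67 and -0.71. PPP1R15A fell under 1.5-fold with the median set to 0 (0.58) and with the 75th percentile equalised (0.57). Over all genes, 1033 were lower and 1393 higher past 1.5-fold. These counts were 1942 and 2496 without a filter on low values, 640 and 800 at an FPKM of at least 5, 2170 and 2856 at 1.3-fold, and 237 and 391 at 2-fold. With a pseudocount of 1 the higher ones were 856. In FPKM times the annotated transcript length, the kinase shares in WT and PERK-KO cells were 50.3% and 46.3% for EIF2AK1 and 24.9% and 28.4% for EIF2AK2. They were 19.0% and 21.5% for EIF2AK4, and 5.88% and 3.81% for EIF2AK3. The length used for EIF2AK2 was 9975 bases, of which 4044 lie inside the listed locus. All other alternatives of the counts stayed within 1.5 times.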
